A study of Arabidopsis thaliana with 4 samples.

Results

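FATB (AT1G08510), FaTA (AT3G25110), AAE15 (AT4G14070) and AAE16 (AT3G23790) are 4 Arabidopsis thaliana genes whose plastid enzymes release fatty acids from, or join them again to, the acyl carrier protein. They were chosen by gene and read by the probe sets paired with that gene alone, of which each had 1. They are 4 of the 16411 genes with a probe set of their own, and not the only thioesterases measured. Seeds of the accession Ler-0 (wild type) and of the mutant wrky43-1 were compared, with 2 biological replicates of each genotype and 1 array for each replicate. For every sample 10 mg of dry seeds were soaked in 0.5 MS, a liquid medium for plant culture, that held 2 µM abscisic acid (ABA), a hormone that keeps seeds from germinating, and were taken after 4 days. Both genotypes carried the hormone treatment and no untreated seeds were compared. WRKY43 encodes a transcription factor, the series title ties it to the polyunsaturated fatty acids of seeds, and the comparison asks which transcripts differ when it is mutated. The labels do not say what the wrky43-1 lesion is, and only 1 mutant line was used, so the allele and anything else that sets this line apart cannot be told apart.

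Fatty acids are built in the plastid while bound to acyl carrier protein (ACP). Acyl-ACP thioesterases end this synthesis by cutting the chain free for export: FATB acts mainly on saturated chains such as palmitate, and FATA-type enzymes act mainly on oleate, the precursor from which seed polyunsaturated fatty acids are made outside the plastid. AAE15 and AAE16 belong to the acyl-activating enzyme superfamily and run the opposite step, joining free fatty acids to ACP inside the plastid. In oilseeds the thioesterases thus help to set which chains leave for the storage oil.

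The values are the deposited log2 values, on which a difference of 1 is a doubling. Array medians lay between 4.34 and 4.43, and Pearson's r across probe sets was 0.986 and 0.987 within the genotypes and 0.978 to 0.981 across them. Detection calls were not used here, so a value near the array median cannot be told from background. Of the seed marker list 2 of 13 genes were measured: PAP85, a vicilin-like storage protein gene, read 12.63 to 12.89 on the 4 arrays and the seed maturation gene M17 read 10.15 to 10.73. Both read lower in wrky43-1, by a log2 difference of -0.19 for PAP85 and -0.50 for M17. The limma adjusted p was 0.493 and 0.218, and the unadjusted p 0.171 and 0.0133. The mean of the seed markers was thus 11.81 and 11.76 in Ler-0 and 11.39 and 11.49 in wrky43-1. The leaf markers, 2 of 6 measured, went opposite ways: LHCB4.1 read 8.86 and 8.99 in Ler-0 and 8.47 and 8.69 in wrky43-1, wholly lower (log2 difference -0.35), while PRK read 3.53 and 3.92 against 5.05 and 3.74 (0.67), high on 1 array. Of 4 seed coat and endosperm markers 2 were measured. DFR of flavonoid synthesis read 4.93 and 5.04 against 5.64 and 5.37, wholly higher, with a log2 difference of 0.51 (limma adjusted p = 0.249, unadjusted 0.0241). BAN had 0.14. The differences of M17, PRK and DFR were each larger in size than that of any member. Both root hair markers were measured, EXPA7 at -0.21 and EXPA18 at 0.18, with values of 2.62 to 3.24. BAN and the root hair markers thus read below the array medians, where signal over background is unknown. The part of these marker values in the results below was not tested, and in whole seeds fewer cells of a type and less RNA per cell cannot be told apart.

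FATB and FaTA both read lower in wrky43-1, each by about the same amount and with no overlap between the genotypes, while AAE15 and AAE16 had overlapping groups. No member passed the test: 0 of the 4 had a limma adjusted p under 0.05 over all probe sets, where 0.0026% of the 38408 probe sets passed as higher and 0.0% as lower. At an unadjusted p under 0.05, 0 of the 4 passed as well, against 9.05% of all probe sets that passed as higher and 6.93% as lower. Groups that did not overlap were common on these arrays. Of all probe sets 23.6% lay wholly lower and 24.5% wholly higher in wrky43-1, against 2 of the 4 members lower and 0 higher.

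FATB, the thioesterase for saturated chains, read 9.87 and 9.97 on the Ler-0 arrays and 9.38 and 9.66 on the wrky43-1 arrays. Both wrky43-1 arrays lay below both Ler-0 arrays, and the genotype means stood further from each other than the replicates of either genotype did. The means were 9.92 ± 0.068 in Ler-0 and 9.52 ± 0.19 in wrky43-1 (SD, n = 2 each), a log2 difference of -0.40 (SE 0.15), so the wrky43-1 level was 0.757 of the Ler-0 level on the linear scale. The unadjusted p was 0.0511 and the limma adjusted p 0.315. The 95% interval of the difference ran from -0.81 to 0.0030 on the log2 scale and so just took in 0. Of the 16722 probe sets with 1 gene, 6.25% had a more negative difference.

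FaTA, the thioesterase for oleate, read 4.49 and 4.47 on the Ler-0 arrays and 4.33 and 3.83 on the wrky43-1 arrays. The Ler-0 replicates were nearly equal, and the wrky43-1 replicates stood further from each other than replicate 1 stood from wild type. The Ler-0 SD of 0.0089 was below that of 94.9% of the probe sets with 1 gene, and the wrky43-1 SD of 0.35 was above that of 93.4% of them. The means were 4.48 in Ler-0 and 4.08 in wrky43-1, a log2 difference of -0.40 (SE 0.20, 95% interval -0.94 to 0.15, limma adjusted p = 0.427). The difference therefore rested mainly on wrky43-1 replicate 2: without it the log2 difference was -0.15, and without replicate 1 it was -0.65. The values also lay close to the array medians, where signal over background is unknown.

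The third locus on the list of plastid acyl thioesterases with a probe set of its own, AT4G13050, carries no gene name in the annotation used here. It was entered in the plan as a FATA-type paralogue and is not one of the members. It read 3.75 and 4.08 in Ler-0 and 3.59 and 3.75 in wrky43-1, below the array medians. The upper wrky43-1 array lay just above the lower Ler-0 array, so the groups overlapped. Its log2 difference was -0.24 (SE 0.17, limma adjusted p = 0.544), and without Ler-0 replicate 2 it was -0.078. All 3 measured thioesterases thus read lower, with a median log2 difference of -0.40 against -0.015 over the probe sets with 1 gene, of which 52.6% read lower. None of the 3 passed, and the other 4 loci on the list were not measured. Whether a probe set also reads a related gene was not tested.

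**Figure D1:**
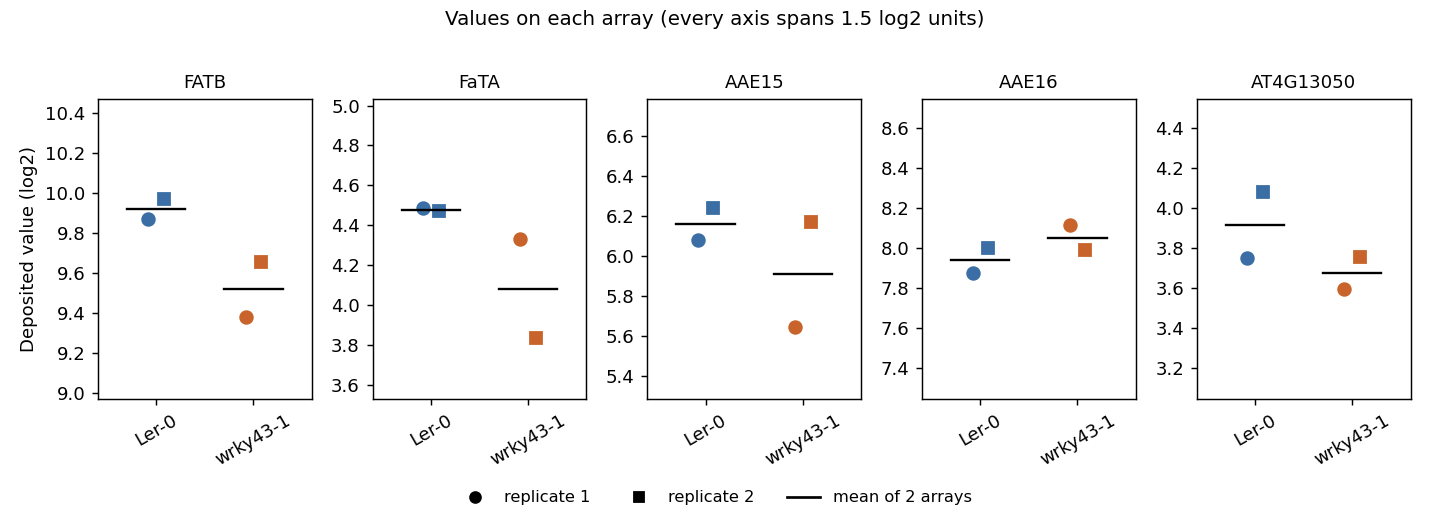
Deposited log2 values (vertical axes) of the 4 members and of AT4G13050 in Ler-0 (blue) and wrky43-1 (orange); circles are replicate 1, squares replicate 2 and lines the mean of the 2 arrays. The wrky43-1 points lie below both Ler-0 points for FATB (9.38 and 9.66 against 9.87 and 9.97) and FaTA; for AAE15, AAE16 and AT4G13050 1 wrky43-1 point lies between the Ler-0 points and the other lies outside them.

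AAE15, an enzyme that joins free fatty acids to ACP, read 6.08 and 6.24 on the Ler-0 arrays and 5.65 and 6.17 on the wrky43-1 arrays. Replicate 1 of wrky43-1 was the lowest of the 4 arrays, while replicate 2 lay between the Ler-0 arrays, so the groups overlapped. The means were 6.16 ± 0.11 in Ler-0 and 5.91 ± 0.37 in wrky43-1 (SD, n = 2 each), a log2 difference of -0.25 (SE 0.22, 95% interval -0.84 to 0.34, limma adjusted p = 0.631). The sign depended on 1 array: without wrky43-1 replicate 1 the log2 difference was 0.012, and without replicate 2 it was -0.51. The wrky43-1 SD was above that of 94.3% of the probe sets with 1 gene.

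AAE16, the closest relative of AAE15 in the superfamily, read 7.88 and 8.00 on the Ler-0 arrays and 8.12 and 7.99 on the wrky43-1 arrays. Replicate 2 of wrky43-1 read just below replicate 2 of Ler-0, so these groups overlapped too. The means of 7.94 ± 0.089 and 8.05 ± 0.089 (SD, n = 2 each) differed by 0.11 on the log2 scale (SE 0.13, limma adjusted p = 0.721). It was the only member of the 4 to read higher, and the only one whose replicates were about equally close in both genotypes. Its 95% interval of -0.23 to 0.46 left room for a fall to 0.85 or a rise to 1.37 of the Ler-0 level.

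The 2 wrky43-1 replicates placed the members in different orders. Against the Ler-0 mean, replicate 1 read -0.54 for FATB, -0.15 for FaTA, -0.51 for AAE15 and 0.18 for AAE16 on the log2 scale. Replicate 2 read -0.26 for FATB, -0.65 for FaTA, 0.012 for AAE15 and 0.050 for AAE16. FATB and AAE15 were thus lowest on the same array and FaTA on the other, and both FATB and FaTA lay below the Ler-0 mean on both. Whether the members differed from each other in their response to the genotype was not tested.

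The likeness of 2 genes was measured as the Euclidean distance between their 4 values, each gene centred on its own mean, over 16411 genes with 1 probe set each. AAE15 was the member nearest to FATB, at a distance of 0.24, with 1198 other genes nearer still, and AT4G13050 of the thioesterase list lay at 0.24 too, with 1285 nearer. FaTA lay at 0.55 from FATB, with 9642 genes nearer, and AAE16 at 0.59 from AAE15, with 10282 genes nearer. By this measure neither FATB and FaTA nor AAE15 and AAE16 were close. The distance takes in the gaps between replicates as well as the genotype difference. FATB and FaTA had the same log2 difference of -0.40, but their wrky43-1 replicates lay 0.27 and 0.50 apart, in opposite order. These distances rest on 4 arrays and describe the values only.

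The genes with the values most like each member's were picked as the nearest of all, so their small distances follow from that choice. For FATB the 3 nearest were AT2G40620, which encodes the bZIP factor bZIP18, AT1G79060 and AT3G46450, at distances of 0.016 to 0.040. AT2G40620 read 7.66 and 7.73 in Ler-0 and 7.16 and 7.42 in wrky43-1. For FaTA they were AT1G77600, AT5G23850 and AT1G13608 (0.016 to 0.034), and for AAE15 AT5G05960, AT5G08350 and AT3G01190 (0.028 to 0.048). For AAE16 they were AT3G27910, AT3G19595 and the cation/hydrogen exchanger gene chx28 (0.016 to 0.022). The 3 of AAE15 read 2.29 to 3.89 on the 4 arrays, the 3 of AAE16 2.11 to 2.87, and AT1G13608 2.33 to 2.97. Those values lie below the array medians, where signal over background is unknown, while the remaining neighbours of FATB and FaTA read above them. None of these 12 genes had a limma adjusted p under 0.05.

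On these arrays long genes tended to read lower in wrky43-1, and the members are of unequal length. Counted from start to end with introns in the TAIR10.1 annotation, FaTA has 2255 bp and FATB 3486 bp, while AAE15 and AAE16, at 6245 and 6281 bp, are nearly equal. Among the 6146 genes of 2000 to 4000 bp the median log2 difference was -0.022, and 6.10% had a more negative difference than FATB and 6.30% than FaTA. Both thioesterases thus lay in the lower tail of genes of their own length. Among the 1432 genes of 4000 to 8000 bp the median was -0.18, and 37.8% had a more negative difference than AAE15, which lay near the middle of them.

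AAE16 stood at the other end of that length class. Only 10.2% of the 1432 genes had a higher log2 difference than its 0.11, and 77.8% of them read lower in wrky43-1. Against the Ler-0 mean, the median of the class was -0.19 on wrky43-1 replicate 1 and -0.16 on replicate 2. AAE15 alone read -0.51 on replicate 1 and 0.012 on replicate 2. With a straight-line trend on log10 length removed, the log2 differences were -0.35 for FATB, -0.37 for FaTA, -0.16 for AAE15 and 0.20 for AAE16 (limma adjusted p = 0.365, 0.456, 0.768 and 0.509). None passed there either. From the shortest class to the longest, the class medians were -0.0031, 0.029, -0.022, -0.18 and -0.47. A straight line does not follow these, so it can take away too little or too much at a given length. The part of gene length in the members' values was not tested further.

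**Figure D2:**
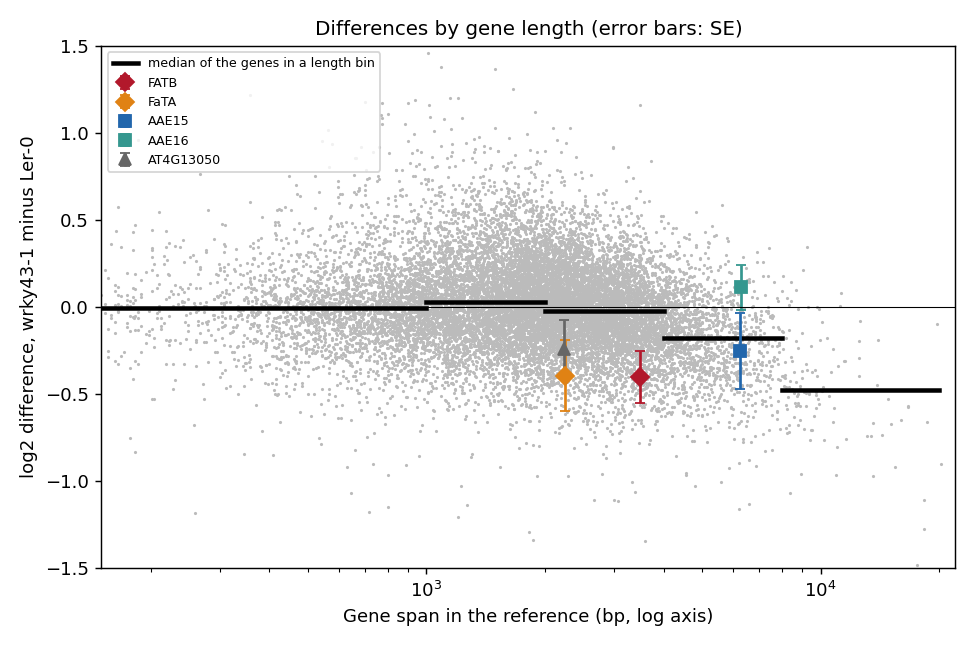
Log2 difference between wrky43-1 and Ler-0 (vertical axis) against gene length in bp (horizontal log axis) for 16272 genes in grey, with 139 genes outside the axes not drawn; black lines are the medians of 5 length classes and error bars the SE of the marked genes. FATB and FaTA lie below the median of -0.022 of their class, AAE15 lies near the -0.18 of its class and AAE16 above it.

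Other genes of the acyl-activating enzyme superfamily, which join carboxylic acids to coenzyme A or ACP, mostly read lower too. Of 25 listed loci 10 were measured. The 8 other than AAE15 and AAE16 held 7 that read lower and 1 that read higher (median log2 difference -0.20), where 52.6% of the probe sets with 1 gene read lower. Of those that read lower, AT2G17650, AT5G16340, AT1G21530, AT1G75960 and AT1G21540 had Ler-0 means of 2.24 to 3.88. These lie below the array medians, where signal over background is unknown. In 5 of the 8 the groups did not overlap on the lower side, against 25.0% of the probe sets with 1 gene, yet 0 passed at an adjusted p under 0.05 (0.0% of the probe sets with 1 gene did in either direction) and 0 at an unadjusted p under 0.05 (6.11% lower, 5.53% higher).

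The locus of this list with the smallest p was AT5G16340, which has no name in the annotation used here. It read 3.85 and 3.80 in Ler-0 and 3.29 and 3.58 in wrky43-1, wholly below, with a log2 difference of -0.39 (SE 0.15, limma adjusted p = 0.320). AAE18 read 6.83 and 6.81 against 6.52 and 6.61, a log2 difference of -0.25 (SE 0.12, limma adjusted p = 0.387). AT2G17650 read 3.82 and 3.93 against 3.32 and 3.77, also without overlap. The acetyl-CoA synthetase gene ACS, at a log2 difference of -0.11, and OPCL1, a ligase of jasmonate synthesis, at 0.13, lay near 0. The list was split between the wrky43-1 replicates. AT5G16340, AAE18, AT2G17650 and AT1G21540 read lower on replicate 1 than on replicate 2, as FATB and AAE15 did. ACS, OPCL1, AT1G75960 and AT1G21530 read higher on replicate 1, as FaTA and AAE16 did. The counts of 7 lower and 1 higher became 6 and 2 without Ler-0 replicate 2. They were the same with quantile normalization and after centring of the arrays, but centring also raised the share of all probe sets with 1 gene that read lower from 52.6% to 65.2%.

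The loci listed for plastid fatty acid synthesis, the pathway that supplies the substrates of the thioesterases, did not lean the same way. Of 20 listed 8 were measured, of which 5 read higher and 3 lower (median log2 difference 0.11). By locus number AT3G02610, AT3G02620 and AT3G02630 are neighbours, as are AT5G16230 and AT5G16240. The counts may thus rest on few gene families rather than on the whole pathway, which was not tested. The counts moved with the setting: 4 read higher and 4 lower once the arrays were centred on a common median, and 7 and 1 with the length trend removed or without Ler-0 replicate 2. AT3G02620 read 5.25 and 5.21 in Ler-0 and 5.47 and 5.55 in wrky43-1, a log2 difference of 0.28 (SE 0.12, limma adjusted p = 0.348). AT5G10160 read 8.21 and 8.12 against 8.41 and 8.50, also 0.28 (SE 0.12). AT3G02610 read 2.63 and 2.81 against 2.91 and 3.50, below the array medians, where signal over background is unknown. In these 3 both wrky43-1 arrays lay above both Ler-0 arrays, the opposite side from FATB and FaTA. In 4 of the 8 the groups were wholly higher and in 0 wholly lower, against 21.7% and 25.0% of the probe sets with 1 gene, and 0 passed at either threshold.

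The loci listed for fatty acid export and acyl-CoA binding act on what the thioesterases release. Of 10 listed 4 were measured and all 4 read higher (median log2 difference 0.15), where 47.4% of the probe sets with 1 gene read higher, but 2 of them read lower with quantile normalization or with the arrays centred. AT2G38550 read 9.54 and 9.50 in Ler-0 and 9.75 and 9.81 in wrky43-1, a log2 difference of 0.26 (SE 0.12, limma adjusted p = 0.374). AT1G33265 read 9.93 and 9.90 against 10.17 and 10.11, a log2 difference of 0.23. AT3G57280 had 0.063 and AT3G43520 0.021, both near 0. The groups of AT2G38550 and AT1G33265 did not overlap, so 2 of the 4 lay wholly higher against 21.7% of the probe sets with 1 gene. Those of AT3G57280 and AT3G43520 overlapped, and none passed.

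Of the long-chain acyl-CoA synthetases, which activate exported fatty acids, 1 of 9 was measured, AT4G11030, with a log2 difference of -0.12 whose sign turned without Ler-0 replicate 1 (0.15). Of plastid pyruvate dehydrogenase, which makes the acetyl-CoA for the pathway, 2 of 7 were measured, AT2G34590 at 0.088 and AT4G16155 at 0.000072. All 4 measured of 15 genes of oil breakdown read lower, with a median of -0.11, where 52.6% of the probe sets with 1 gene did. With the length trend removed, or without wrky43-1 replicate 1, 3 read lower and 1 higher. Among them were AIM1 of beta-oxidation at -0.17 and the lipase genes SDP1-LIKE at -0.12 and SDP1 at -0.11. Of the list of acyl carrier proteins 0 of 8 were measured, and of the list of desaturation, elongation and triacylglycerol assembly 0 of 20. Neither list has values here. Each gene stands on a single list, so these counts do not cover genes of such kinds placed on another list. Over all lists 13 of the 32 measured genes read higher and 19 lower, with 0 past an adjusted p of 0.05.

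**Figure D3:**
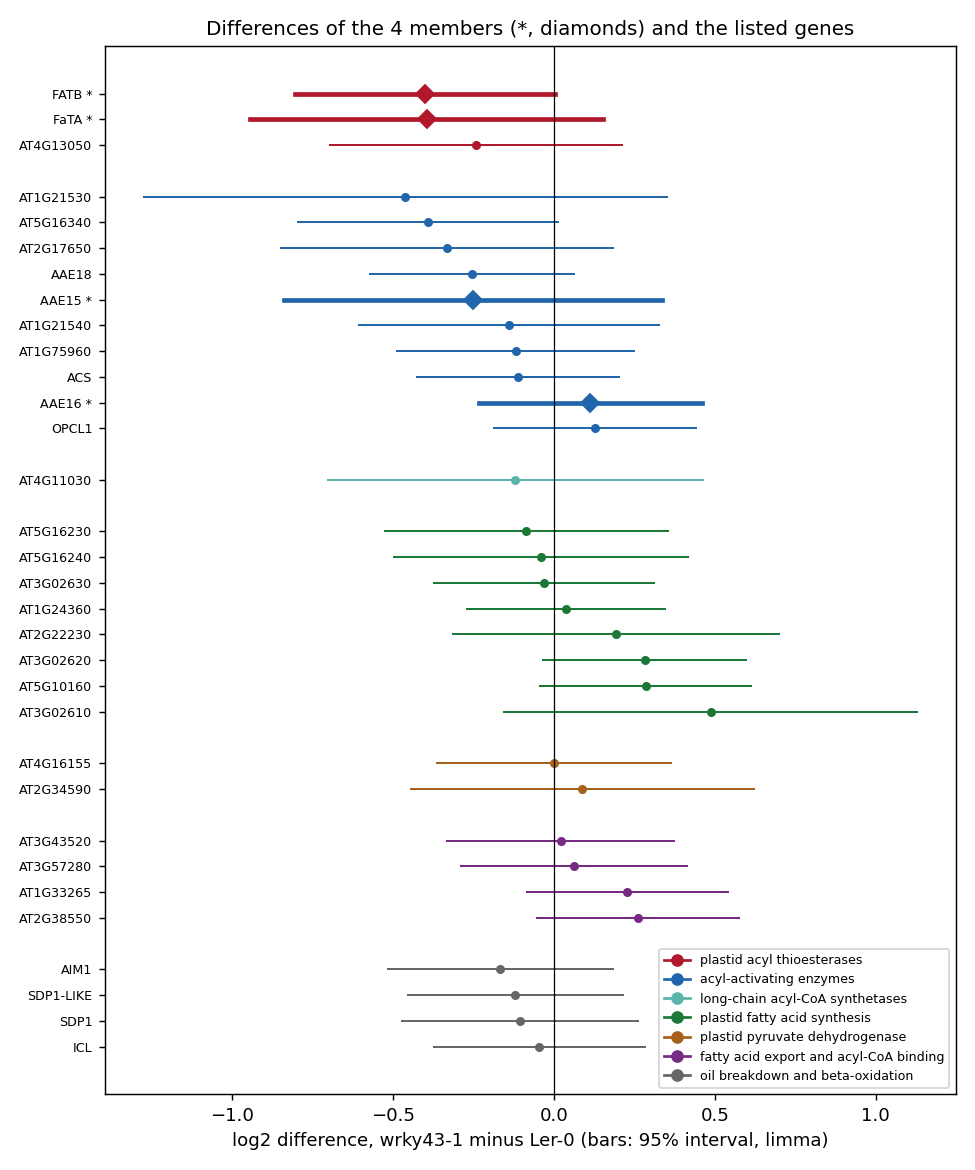
Log2 difference between wrky43-1 and Ler-0 (horizontal axis) with its 95% limma interval for the 4 members (diamonds, starred) and the other measured loci of 7 lists (circles, coloured by list). Every interval takes in 0; the 3 thioesterases lie between -0.40 and -0.24, and the loci of plastid fatty acid synthesis between -0.086 and 0.49.

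Of the alternatives, 7 could change the log2 differences themselves (quantile normalization, centring, the length trend removed and each array left out), and the others change only the error and the test. FATB ranged from -0.54 to -0.26 over 15 alternatives, FaTA from -0.65 to -0.15 over 14 and AAE16 from 0.040 to 0.20 over 15. AAE15 ranged from -0.51 to 0.012 and turned only without wrky43-1 replicate 1. No alternative brought any member past the adjusted threshold. FATB came nearest, with a limma adjusted p of 0.163 both without the lowest 50 percent of probe sets and when the variance prior followed intensity. Its unadjusted limma p was 0.0511 as reported and fell on either side of 0.05 over the alternatives. These refit the same arrays and are not separate support.

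**Figure D4:**
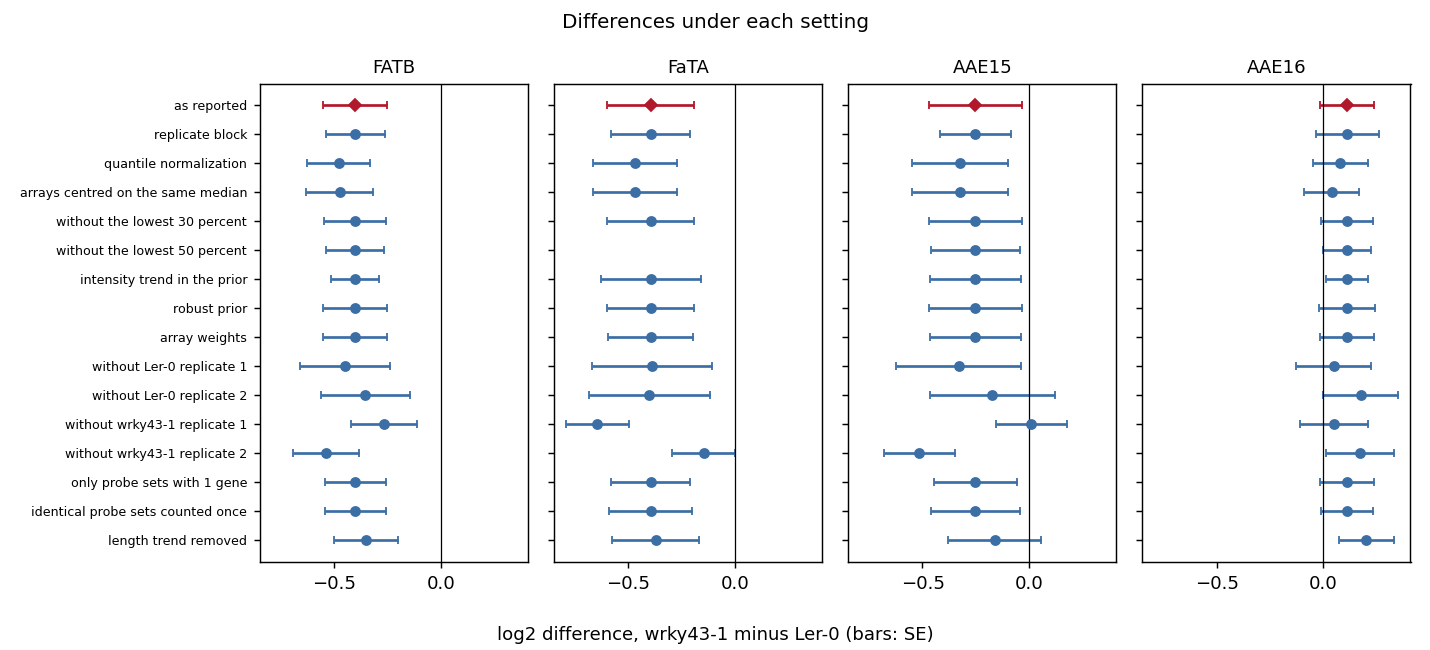
Log2 difference between wrky43-1 and Ler-0 (horizontal axis) with its SE for each member as reported (red diamonds) and under each alternative (blue circles, 1 line each). FATB stays between -0.54 and -0.26 and AAE15 crosses 0 without wrky43-1 replicate 1; FaTA has no point without the lowest 50 percent of probe sets because it was left out there.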

How the data were processed

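The deposited series table holds 38408 probe sets on 4 arrays. Its scale is not stated; the deposited values lie between 1.18 and 14.27 and were read as log2. The authors' normalization and probe summary were not given in the sources used here. Genes were named through the platform annotation and the reference annotation TAIR10.1; 16722 probe sets had 1 gene. Genotypes were compared with limma 3.58.1 in R 4.3.3 (lmFit, eBayes, two-sided, no block), and p was adjusted by Benjamini-Hochberg across all probe sets. Degrees of freedom were 2 residual and 2.34 prior, and the step was tested on simulated data. Where a listed gene had several probe sets, that of the highest mean stood for it. By their numbers, the 20 nearest named probe sets of each member lay on its own chromosome, and no member's values were identical to another's. The members, the 9 lists, the tests and the naming rule were chosen with earlier results of these data known. That rule named the members, AT4G13050, the 3 loci of each list with the smallest p and the 3 genes nearest to each member. OPCL1, ACS, AT1G21530, AT1G21540, AT1G75960, AT3G02630, AT3G43520, AT5G16230 and AT5G16240 were added after their values had been seen. Planned searches of promoters and proteins were not run, and no sequence was analysed here. WRKY43 had no probe set of its own in the table used here. The number of arrays limits the precision.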

Additional observations from a re-analysis of the deposited data

How the results depend on the processing

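With 2 arrays of each genotype, the limits come mainly from the number of arrays and from signal over background, which is unknown. As reported, 1 probe set was higher in wrky43-1. That count was 0 under the replicate block, 2 after centring of the arrays, 6 once the lowest 50 percent were dropped, 74 where the prior followed intensity, 12 when only probe sets with 1 gene were fitted and 7 when repeats of identical values were removed. The count of lower probe sets, 0 as reported, became 30, 6 and 1 in the last 3 of these settings. The cause was not tested. Without single arrays both counts ranged from 0 to 0, in fits with 1 residual degree of freedom where the lone array is taken to vary as the other genotype does. Leaving out single arrays moved FATB between -0.54 and -0.26, FaTA between -0.65 and -0.15, AAE15 between -0.51 and 0.012 and AAE16 between 0.050 and 0.18 on the log2 scale; AAE15 turned positive (0.012) only without wrky43-1 replicate 1. The replicate block left the log2 differences as they were, and the limma adjusted p was 0.359 for FATB, 0.441 for FaTA, 0.551 for AAE15 and 0.768 for AAE16. The labels do not say whether same-numbered arrays share a batch. Their deviations had a correlation of -0.026 across probe sets, which cannot settle it. FaTA has no value without the lowest 50 percent, and each member had 1 probe set, so alternatives on the choice of probe set gave no further value.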
